A study of Mus musculus with 15 samples.

Results

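The genes described here are 41 genes of the cell cycle, taken from the mouse brain transcriptome of cuprizone-fed mice by their gene symbols: 12 genes of DNA replication (Mcm2 to Mcm7, Pcna, Rrm1, Rrm2, Tyms, Tk1 and Cdc45) and 29 genes of mitosis. All 41 were found among the 19261 genes with a value in all 15 mice. RNA came from mixed corpus callosum and neocortex of wild-type mice in 3 groups of 5. The control mice were untreated on standard chow, and no vehicle is named for them. The vehicle mice received 0.25% (w/w) cuprizone for 3 weeks together with vehicle, and the siponimod mice the same cuprizone diet together with siponimod at 3.125 mg/kg. Cuprizone, which binds copper, is toxic to oligodendrocytes, and siponimod modulates sphingosine 1-phosphate receptors. Effects of cuprizone and of the vehicle cannot be told apart.

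A cell that divides first licenses its replication origins with the MCM helicase and makes deoxynucleotides for DNA synthesis, and later turns on a separate programme of cyclins, kinases, motors and kinetochore proteins that carries it through mitosis. Transcripts of these programmes are scarce in adult brain, where neurons no longer divide. The dividing cells of the adult mouse forebrain are mainly oligodendrocyte progenitors and the stem and progenitor cells beside the ventricle, and microglia divide after injury. In demyelination by cuprizone, microglia accumulate and oligodendrocyte progenitors proliferate.

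Levels are TPM, transcript abundance per length scaled to a fixed total per library. Depth cannot be read from TPM, and the values carry no counting error here. In bulk tissue, fewer cells of a type and less RNA per cell cannot be told apart. Genes above 0.5 TPM in at least 5 of the 15 mice were tested, 17714 in all. Of the 41 genes, 37 passed this filter, and Bub1, Aurkb, Kif2c and Cenpf did not. A gene that is low in control mice can pass through 1 high group, so counts over the 37 are given beside counts from a fit without the filter, which holds all 41. The library of vehicle mouse 1 was unlike the other 14. In it the small neuronal RNA Bc1 took 35.1% of its TPM against 6.0% to 10.8% elsewhere, and its median tested gene had 5.54 TPM against 11.8 to 13.0 TPM. The median gene shifted by -0.21 log2 from control to vehicle mice, by 0.0083 log2 from control to siponimod mice and by 0.21 log2 from vehicle to siponimod mice. Without vehicle mouse 1 and siponimod mouse 1 these shifts were -0.030, 0.0078 and 0.033 log2. For this reason group differences below have the shift of the median gene subtracted and are on the scale of log2(TPM + 0.5). Values per mouse, their ranges and the overlap of groups are in TPM without this subtraction, and most genes of vehicle mouse 1 are low there. Each limma p-value belongs to the difference before this subtraction, and each 95% interval was moved with its estimate.

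The promoters of 4 of these genes are printed because each carries the sequence elements for which promoters of its programme are known. E2F factors bind GC-rich sites in promoters of replication genes, and MuvB complexes bind the cell cycle genes homology region (CHR) of mitotic promoters, which often also hold CCAAT boxes. In the 250 bases before the RefSeq start, on either strand, matches were sought to the E2F core (TTCCCGC or TTGGCGC or TTCGCGC or TTGCCGC), to the CHR (TTTGAA or TTCGAA) and to CCAAT. Capitals mark the matches, a match on the other strand appearing as its reverse complement. TTCGAA is its own reverse complement and was counted once. In Mcm5, TTCGCGC overlaps GCGCCAA by 4 letters, and both were counted. The sequences are RefSeq's on GRCm38.p6, 5′ to 3′ on the strand of the gene.
Top2a, chr11:99024190-99024439, minus strand: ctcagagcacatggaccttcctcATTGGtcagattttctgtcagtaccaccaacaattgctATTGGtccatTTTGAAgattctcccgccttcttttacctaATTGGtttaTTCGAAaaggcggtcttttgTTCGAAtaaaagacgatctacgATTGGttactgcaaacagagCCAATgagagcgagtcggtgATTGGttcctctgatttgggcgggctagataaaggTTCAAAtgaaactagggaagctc
Cdk1, chr10:69352913-69353162, minus strand: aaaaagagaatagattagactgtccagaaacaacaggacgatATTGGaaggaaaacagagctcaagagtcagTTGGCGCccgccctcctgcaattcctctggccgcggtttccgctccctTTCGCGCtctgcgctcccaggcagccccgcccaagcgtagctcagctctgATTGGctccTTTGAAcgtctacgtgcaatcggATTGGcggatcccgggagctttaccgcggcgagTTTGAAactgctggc
Mcm5, chr8:75109259-75109508, plus strand: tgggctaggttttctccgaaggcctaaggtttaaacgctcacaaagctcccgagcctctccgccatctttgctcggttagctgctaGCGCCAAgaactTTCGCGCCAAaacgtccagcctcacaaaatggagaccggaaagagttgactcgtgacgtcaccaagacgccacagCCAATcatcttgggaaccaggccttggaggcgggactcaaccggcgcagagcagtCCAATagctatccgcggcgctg
Rrm1, chr7:102441445-102441694, plus strand: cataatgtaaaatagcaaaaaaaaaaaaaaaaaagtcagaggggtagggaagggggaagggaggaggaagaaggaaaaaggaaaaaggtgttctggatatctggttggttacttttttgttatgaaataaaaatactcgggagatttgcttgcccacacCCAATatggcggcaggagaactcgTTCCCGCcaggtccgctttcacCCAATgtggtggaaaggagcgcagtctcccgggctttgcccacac

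These windows held 4 CHR matches and 6 CCAAT boxes in Top2a, and 2 E2F cores, 2 CHR matches and 3 CCAAT boxes in Cdk1. Mcm5 held 3 E2F cores and 2 CCAAT boxes, Rrm1 held 1 E2F core and 2 CCAAT boxes, and neither of these windows held a CHR match. The CHR match nearest to the start lay 17 bases before it in Top2a and 9 bases before it in Cdk1. The last 26 bases of the Cdk1 window lie in an exon of the GENCODE annotation, whose gene starts further upstream. The RefSeq table had 27 promoters for 25 of the 29 mitotic genes and 12 promoters for 11 of the 12 replication genes. Aurkb, Ccna2, Kif20a, Tpx2 and Mcm4 had no entry. Among mitotic promoters, 13 (48.1%) held a CHR match, 23 (85.2%) a CCAAT box and 12 (44.4%) both. Among replication promoters, 6 (50%) held an E2F core, 10 (83.3%) a CCAAT box and 3 (25%) a CHR match. An E2F core was found in 5 mitotic promoters (18.5%). The Birc5 window held no match to any of the 3 elements. Of all 32851 promoters of the table, 7.89% held an E2F core, 17.1% a CHR match, 33.8% a CCAAT box and 6.02% both of the latter. A match describes the letters of the window and does not show that a factor binds there.

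The mitotic genes were rare transcripts in every group. Of the 29, 12 had a mean under 1 TPM over the 15 mice and 1, Racgap1, a mean over 5 TPM. Mki67, whose product Ki-67 coats mitotic chromosomes and marks cycling cells (ENSMUSG00000031004, chromosome 7, 135689784 to 135716361, minus strand, GRCm38), had 0.26, 0.52, 0.39, 0.41 and 0.37 TPM in control mice 1 to 5, 0.38, 0.60, 0.86, 0.52 and 2.22 TPM in vehicle mice 1 to 5 and 1.21, 0.62, 0.32, 0.38 and 0.35 TPM in siponimod mice 1 to 5. Vehicle mouse 5 and siponimod mouse 1 lay above all other mice, and the remaining mice of the 3 groups overlapped. Top2a, the topoisomerase that untangles replicated chromosomes (ENSMUSG00000020914, chromosome 11, 98992943 to 99024189, minus strand), had 0.54, 0.89, 0.78, 0.67 and 0.73 TPM in control mice 1 to 5, 1.52, 1.47, 2.27, 1.37 and 4.55 TPM in vehicle mice 1 to 5 and 1.76, 1.44, 0.76, 0.60 and 0.83 TPM in siponimod mice 1 to 5. Every vehicle mouse lay above every control mouse, siponimod mice 1 and 2 also lay above the controls, and siponimod mice 3 to 5 lay within their range.

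Cdk1, the kinase that drives entry into mitosis (ENSMUSG00000019942, chromosome 10, 69335146 to 69352938, minus strand), had 0.33, 0.56, 0.38, 2.0 and 0.82 TPM in control mice 1 to 5, 2.59, 1.86, 1.84, 1.49 and 6.27 TPM in vehicle mice 1 to 5 and 4.37, 1.4, 0.46, 0.63 and 0.79 TPM in siponimod mice 1 to 5. The vehicle mice lay above 4 of the 5 control mice, and control mouse 4 overlapped them. Siponimod mouse 1 was the second highest of all 15 mice, while siponimod mice 2 to 5 lay within the control range. Ccna2, the cyclin of S phase and early mitosis (ENSMUSG00000027715, chromosome 3, 36564865 to 36572150, minus strand), had 1.52, 2.01, 1.72, 2.02 and 1.8 TPM in control mice 1 to 5, 1.1, 2.03, 2.23, 1.68 and 4.07 TPM in vehicle mice 1 to 5 and 3.08, 2.22, 2.03, 1.66 and 1.67 TPM in siponimod mice 1 to 5. Its groups overlapped, with vehicle mouse 1 the lowest and vehicle mouse 5 the highest of all 15 mice.

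The B-type cyclins are partners of Cdk1 in mitosis. Ccnb1 ranged over 0.46 to 1.4 TPM in control, 0.84 to 1.98 TPM in vehicle and 0.55 to 1.17 TPM in siponimod mice. Ccnb2 ranged over 0.53 to 1.32 TPM in control, 1.18 to 2.98 TPM in vehicle and 0.49 to 1.4 TPM in siponimod mice. For both genes the vehicle group reached higher than the other 2 groups, and the groups overlapped.

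The chromosomal passenger complex corrects and senses attachments of chromosomes to the spindle. Birc5, its subunit survivin (ENSMUSG00000017716, chromosome 11, 117849251 to 117855743, plus strand), had 0.61, 0.74, 1.15, 1.51 and 2.02 TPM in control mice 1 to 5, 2.75, 2.05, 1.57, 1.52 and 3.16 TPM in vehicle mice 1 to 5 and 2.78, 1.05, 1.39, 0.64 and 0.93 TPM in siponimod mice 1 to 5. The highest control mouse lay above vehicle mice 3 and 4, and siponimod mouse 1 lay with the high vehicle mice while the other siponimod mice lay within the control range. Aurkb, the kinase of the complex, ranged over 0.15 to 0.47 TPM in control, 0.44 to 2.19 TPM in vehicle and 0.29 to 0.57 TPM in siponimod mice, and its vehicle group reached above 1 TPM in mouse 5 alone. Cdca8, the subunit borealin, ranged over 1.09 to 1.85 TPM in control, 1.2 to 2.16 TPM in vehicle and 1.18 to 2.1 TPM in siponimod mice, with overlapping groups. The spindle kinases and checkpoint genes were similarly low. Aurka, a kinase of the spindle poles, ranged over 0.96 to 1.8 TPM in control, 1.11 to 2.39 TPM in vehicle and 0.71 to 1.99 TPM in siponimod mice. Plk1, a kinase with many mitotic substrates, ranged over 0.96 to 1.47 TPM in control, 0.76 to 2.33 TPM in vehicle and 1.19 to 1.94 TPM in siponimod mice. Bub1, a checkpoint kinase of the kinetochore, ranged over 0.00 to 0.52 TPM in control, 0.25 to 0.82 TPM in vehicle and 0.06 to 0.34 TPM in siponimod mice and was listed at 0 in control mouse 1. Bub1b, the checkpoint protein BubR1, ranged over 0.67 to 2.73 TPM in control, 0.55 to 2.76 TPM in vehicle and 0.99 to 1.91 TPM in siponimod mice, with control and vehicle groups of nearly the same range.

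Among genes of the spindle and its motors, Nusap1, which bundles spindle microtubules (ENSMUSG00000027306, chromosome 2, 119618298 to 119651244, plus strand), had 1.3, 1.78, 1.65, 1.46 and 1.66 TPM in control mice 1 to 5, 0.55, 1.79, 1.85, 1.53 and 2.27 TPM in vehicle mice 1 to 5 and 2.2, 1.86, 1.61, 1.69 and 1.38 TPM in siponimod mice 1 to 5. The groups overlapped and vehicle mouse 1 lay below every other mouse. Kif11, the motor that separates the spindle poles, ranged over 0.46 to 0.89 TPM in control, 0.58 to 1.31 TPM in vehicle and 0.61 to 0.99 TPM in siponimod mice. Kif2c, a motor that depolymerizes microtubules at kinetochores, ranged over 0.09 to 0.24 TPM in control, 0.19 to 0.88 TPM in vehicle and 0.15 to 0.45 TPM in siponimod mice. In both genes the highest value was that of vehicle mouse 5. Tpx2, which nucleates spindle microtubules and activates Aurora A, ranged over 1.01 to 1.48 TPM in control, 0.65 to 2.37 TPM in vehicle and 0.89 to 1.77 TPM in siponimod mice. Hmmr, a microtubule-binding protein of the spindle poles, ranged over 0.38 to 0.47 TPM in control, 0.37 to 0.93 TPM in vehicle and 0.30 to 0.61 TPM in siponimod mice. The kinetochore proteins were among the lowest. Cenpe, a kinetochore motor, ranged over 0.35 to 0.80 TPM in control, 0.23 to 1.01 TPM in vehicle and 0.34 to 0.77 TPM in siponimod mice, and Cenpf, a large kinetochore protein, over 0.10 to 0.21 TPM in control, 0.14 to 0.45 TPM in vehicle and 0.13 to 0.32 TPM in siponimod mice.

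The genes of cytokinesis held the most abundant mitotic transcripts. Racgap1, a subunit of centralspindlin that organises the cleavage furrow (ENSMUSG00000023015, chromosome 15, 99620496 to 99651656, minus strand), had 6.2, 8.2, 6.57, 6.57 and 7.46 TPM in control mice 1 to 5, 3.8, 6.56, 7.8, 9.13 and 9.79 TPM in vehicle mice 1 to 5 and 8.82, 7.72, 8.03, 6.55 and 6.51 TPM in siponimod mice 1 to 5. Prc1, which bundles the microtubules of the central spindle (ENSMUSG00000038943, chromosome 7, 80294450 to 80316259, plus strand), had 5.31, 5.06, 3.85, 4.6 and 5.07 TPM in control mice 1 to 5, 1.75, 4.35, 4.46, 3.65 and 7.53 TPM in vehicle mice 1 to 5 and 5.42, 4.29, 5.17, 2.97 and 4.6 TPM in siponimod mice 1 to 5. In both genes vehicle mouse 1 was the lowest and vehicle mouse 5 the highest of all 15 mice, and the siponimod mice overlapped the controls. Kif23, the motor subunit of centralspindlin (ENSMUSG00000032254, chromosome 9, 61915905 to 61946774, minus strand), had 1.19, 1.39, 1.37, 2.44 and 1.41 TPM in control mice 1 to 5, 0.89, 1.42, 1.94, 1.85 and 2.55 TPM in vehicle mice 1 to 5 and 1.09, 0.95, 3.99, 2.43 and 2.55 TPM in siponimod mice 1 to 5. Siponimod mouse 3 was the highest of all mice here, and siponimod mice 1 and 2 were the lowest of their group. Kif20a, a motor of the central spindle, ranged over 0.34 to 1.14 TPM in control, 0.85 to 1.42 TPM in vehicle and 0.60 to 2.03 TPM in siponimod mice. Ect2, which activates RhoA at the furrow, ranged over 0.31 to 0.96 TPM in control, 0.24 to 0.73 TPM in vehicle and 0.31 to 1.27 TPM in siponimod mice. These 2 genes were highest in siponimod mouse 1.

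Ncapg, a subunit of condensin that compacts chromosomes (ENSMUSG00000015880, chromosome 5, 45669919 to 45700546, plus strand), had 1.13, 1.12, 3.18, 0.89 and 1.68 TPM in control mice 1 to 5, 0.55, 1.39, 1.62, 3.27 and 3.26 TPM in vehicle mice 1 to 5 and 1.59, 2.43, 3.12, 2.72 and 2.01 TPM in siponimod mice 1 to 5. Vehicle mice 4 and 5, control mouse 3 and siponimod mouse 3 lay close together at the top, so its high values were not confined to 1 group. The partners of the anaphase-promoting complex came next. Cdc20, its mitotic activator, ranged over 0.70 to 1.06 TPM in control, 0.88 to 2.37 TPM in vehicle and 0.69 to 2.11 TPM in siponimod mice. Ube2c, its ubiquitin-conjugating enzyme, ranged over 0.17 to 1.31 TPM in control, 0.67 to 3.46 TPM in vehicle and 0.10 to 1.38 TPM in siponimod mice, with vehicle mice 5 and 1 as its highest values. Melk, a kinase expressed in cycling progenitors, ranged over 0.58 to 1.04 TPM in control, 0.44 to 1.35 TPM in vehicle and 0.69 to 1.32 TPM in siponimod mice, and its groups overlapped.

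Replication genes were more abundant, and Mcm4, Mcm7, Pcna and Rrm1 averaged over 5 TPM across the 15 mice. Pcna, the sliding clamp of DNA polymerases, which also serves in DNA repair (ENSMUSG00000027342, chromosome 2, 132249162 to 132253314, minus strand), had 54.9, 54.9, 58.9, 63.4 and 54.2 TPM in control mice 1 to 5, 61.9, 56.1, 57.5, 59.5 and 71.3 TPM in vehicle mice 1 to 5 and 60.2, 60.5, 56.5, 60.6 and 56.5 TPM in siponimod mice 1 to 5. The groups overlapped, and vehicle mouse 5 was the highest of all mice. Of the MCM helicase subunits, Mcm7 was the most abundant (ENSMUSG00000029730, chromosome 5, 138164583 to 138172422, minus strand) and had 14.4, 13.6, 11.8, 15.4 and 13.5 TPM in control mice 1 to 5, 7.52, 17.3, 14.8, 16 and 20.5 TPM in vehicle mice 1 to 5 and 19.4, 17.8, 14.3, 14.5 and 14.5 TPM in siponimod mice 1 to 5. In TPM, vehicle mouse 1 lay far below every other mouse, but its median tested gene was also low, so this place depends on the scale. Vehicle mouse 5 and siponimod mouse 1 were the highest in TPM. Mcm4 (ENSMUSG00000022673, chromosome 16, 15623897 to 15637400, minus strand) had 5.9, 6.37, 5.31, 6.5 and 5.42 TPM in control mice 1 to 5, 3.4, 5.55, 6.37, 6.29 and 7.81 TPM in vehicle mice 1 to 5 and 6.88, 6.97, 5.89, 6.06 and 5.53 TPM in siponimod mice 1 to 5. Its groups overlapped, again with vehicle mouse 1 lowest and vehicle mouse 5 highest.

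Mcm5 (ENSMUSG00000005410, chromosome 8, 75109569 to 75128439, plus strand) had 4.55, 4.66, 4.68, 4.18 and 4.18 TPM in control mice 1 to 5, 2.58, 4.77, 4.87, 6.46 and 6.44 TPM in vehicle mice 1 to 5 and 5.06, 5.59, 4.11, 4.64 and 4.59 TPM in siponimod mice 1 to 5. In TPM, every vehicle mouse except vehicle mouse 1 lay above all controls, and the siponimod mice overlapped both groups. The median tested gene of vehicle mouse 1 was also low, so this exception depends on the scale. Mcm2 (ENSMUSG00000002870, chromosome 6, 88883474 to 88898780, minus strand) had 3.29, 2.84, 3.01, 3.27 and 2.83 TPM in control mice 1 to 5, 1.63, 2.67, 3.47, 3.01 and 4.67 TPM in vehicle mice 1 to 5 and 3.84, 2.93, 3.26, 3.43 and 2.76 TPM in siponimod mice 1 to 5. Its groups overlapped around the control level of 3.05 ± 0.223 TPM (SD, n = 5). Mcm3, singled out after its values were seen (ENSMUSG00000041859, chromosome 1, 20802968 to 20820312, minus strand), had 1.57, 1.83, 1.56, 1.31 and 1.86 TPM in control mice 1 to 5, 3.61, 2.06, 2.54, 2.07 and 3.63 TPM in vehicle mice 1 to 5 and 3.24, 2.47, 1.94, 2.24 and 3.11 TPM in siponimod mice 1 to 5. Every vehicle mouse and every siponimod mouse lay above every control mouse, and the vehicle and siponimod groups overlapped. Mcm6, the remaining subunit, ranged over 3.39 to 4.71 TPM in control, 2.27 to 6.52 TPM in vehicle and 3.97 to 5.41 TPM in siponimod mice, and Cdc45, which joins the MCM ring in the active helicase, over 1.04 to 1.95 TPM in control, 0.89 to 2.1 TPM in vehicle and 1.1 to 1.87 TPM in siponimod mice.

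The enzymes of deoxynucleotide supply completed the replication set. Rrm1, the large subunit of ribonucleotide reductase (ENSMUSG00000030978, chromosome 7, 102441695 to 102469771, plus strand), had 10.7, 9.39, 8.31, 9.64 and 8.43 TPM in control mice 1 to 5, 9.98, 9.69, 8.79, 10.7 and 14.7 TPM in vehicle mice 1 to 5 and 13.1, 11.9, 8.37, 9.08 and 9.81 TPM in siponimod mice 1 to 5. Rrm2, its small subunit, which is made in S phase (ENSMUSG00000020649, chromosome 12, 24708241 to 24714146, plus strand), had 1.27, 1.13, 1.4, 1.78 and 1.53 TPM in control mice 1 to 5, 1.58, 1.4, 1.82, 1.56 and 3.3 TPM in vehicle mice 1 to 5 and 2.82, 1.66, 1.74, 1.46 and 1.64 TPM in siponimod mice 1 to 5. For both genes vehicle mouse 5 and siponimod mouse 1 were the highest of the 15 mice, and without them the groups lay close together. Tyms, thymidylate synthase, ranged over 1.29 to 2.26 TPM in control, 1.36 to 4.46 TPM in vehicle and 1.6 to 3.72 TPM in siponimod mice. Tk1, thymidine kinase of the cytosol, ranged over 0.96 to 2.09 TPM in control, 1.43 to 4.39 TPM in vehicle and 0.84 to 2.31 TPM in siponimod mice, with its lowest value in siponimod mouse 5.

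**Figure D1:**
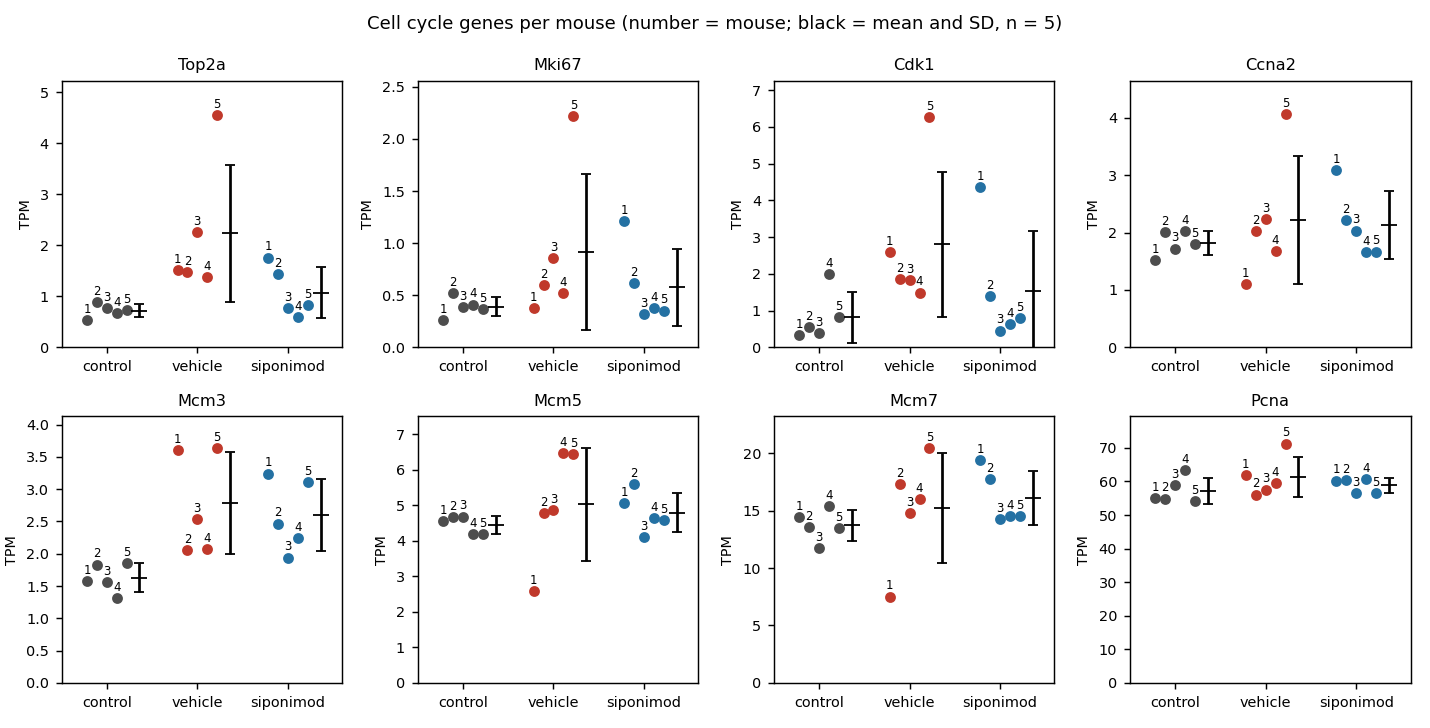
Level in TPM on a linear axis from 0 for 4 mitotic and 4 replication genes, with 1 numbered point per mouse in control, vehicle and siponimod groups and the mean with SD (n = 5) in black beside each group. The lower SD bar of Cdk1 in siponimod mice ends at the axis. Vehicle mouse 5 and siponimod mouse 1 stand above their groups in Top2a, Mki67, Cdk1 and Ccna2, and for Mcm3 the control points lie under all others.

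In TPM, a single mouse of each cuprizone group carried the highest levels for most genes of the set. Vehicle mouse 5 was the highest of all 15 mice for 36 of the 41 genes, 25 mitotic and 11 replication genes, and the highest of the vehicle mice for 39. The exceptions over all mice were Kif20a and Ect2, highest in siponimod mouse 1, Kif23, highest in siponimod mouse 3, and Ncapg and Mcm5, highest in vehicle mouse 4. Siponimod mouse 1 was the highest of the siponimod mice for 30 of the 41 genes, 23 mitotic and 7 replication genes. No mouse of the control group was the highest of 15 for any of the 41. The share of all measured genes that were highest in each mouse was not computed. Relative to the median of its own group, vehicle mouse 5 had a median ratio of 1.78 over the 29 mitotic genes, all 29 above 1 and 12 at 2 or more. Of 17702 tested genes, 60.2% lay above 1 in this mouse and 301 at 2 or more. The median ratio was 1.45 over the 12 replication genes and 1.04 over the tested genes. In siponimod mouse 1 these medians were 1.52, 1.18 and 1. In vehicle mouse 1 they were 0.637, 0.704 and 0.494, so its cell cycle genes were low in TPM but less so than its median gene.

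Summed over the 29 mitotic genes, control mice 1 to 5 had 30.7, 38.3, 37.7, 37.0 and 36.3 TPM. Vehicle mice 1 to 5 had 31.6, 40.6, 42.6, 42.1 and 79.5 TPM, and siponimod mice 1 to 5 had 55.9, 41.0, 41.4, 33.8 and 34.3 TPM. In TPM, vehicle mouse 1 lay within the control range, vehicle mice 2 to 4 just above it and vehicle mouse 5 far above it. Siponimod mice 1 to 3 lay above it and siponimod mice 4 and 5 within it. The place of vehicle mouse 1 depended on the scale. Divided by the median tested gene of the library, the mitotic sum was 5.70 in vehicle mouse 1 and 6.18 in vehicle mouse 5. Control mice had 2.56 to 3.06 on that scale. The group means were 36 ± 3.05, 47.3 ± 18.6 and 41.3 ± 8.92 TPM (SD, n = 5 each). Without vehicle mouse 5 the vehicle mean was 39.2 ± 5.18 TPM, and without siponimod mouse 1 the siponimod mean was 37.6 ± 4.13 TPM. The summed replication genes had 105.7 ± 4.65 TPM in control, 116.5 ± 19.5 TPM in vehicle and 114.4 ± 9.03 TPM in siponimod mice. Vehicle mouse 5 had 149.7 TPM and siponimod mouse 1 had 127.7 TPM. Divided by the median tested gene, the replication sum was 17.8 in vehicle mouse 1, 11.6 in vehicle mouse 5 and 8.03 to 8.85 in control mice. Pcna alone made up a large share of these sums, so the plot of sums leaves it out.

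**Figure D2:**
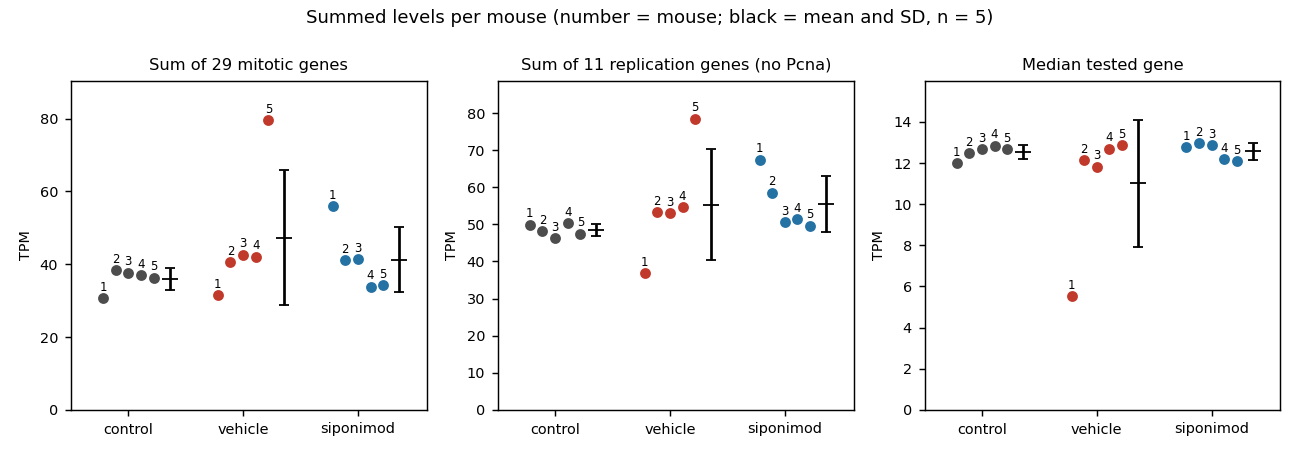
Summed TPM of the 29 mitotic genes, summed TPM of the 11 replication genes other than Pcna, and TPM of the median tested gene, with 1 numbered point per mouse and the mean with SD (n = 5) in black. Vehicle mouse 5 at 79.5 TPM and siponimod mouse 1 at 55.9 TPM stand out in the mitotic sum, while their median genes, 12.9 and 12.8 TPM, lie with those of the other mice and that of vehicle mouse 1 is low at 5.54 TPM.

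**Figure D3:**
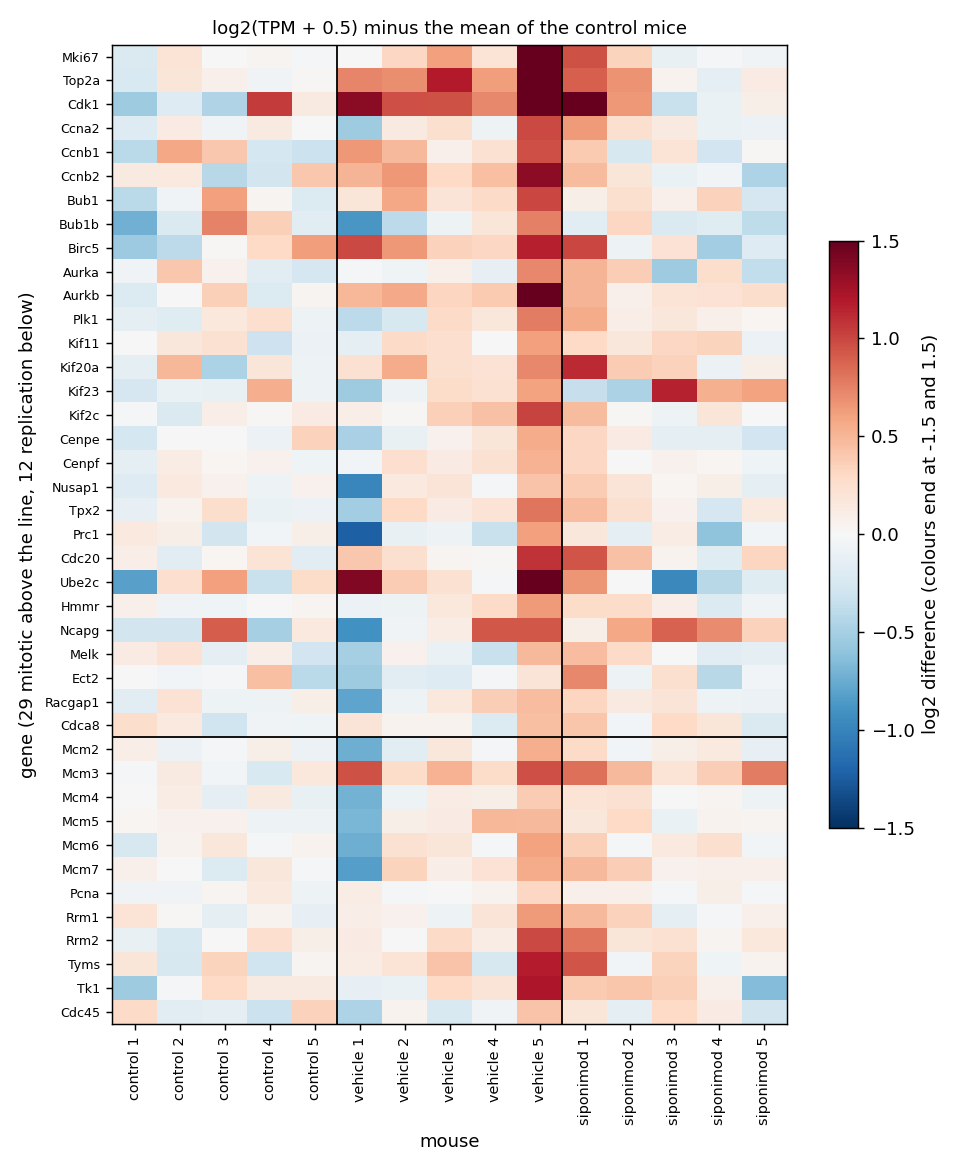
Each cell is log2(TPM + 0.5) of 1 gene in 1 mouse minus the mean of the 5 control mice, from blue for lower to red for higher, with colours ending at 1.5 in either direction; the 29 mitotic genes lie above the horizontal line and the 12 replication genes below it. The column of vehicle mouse 5 is red in nearly every row, that of siponimod mouse 1 in most rows, and that of vehicle mouse 1 is mixed, red for Cdk1, Ube2c, Birc5 and Mcm3 and blue for Prc1, Nusap1, Ncapg and most MCM genes.

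The first comparison asked which of these genes differed after 3 weeks of cuprizone with vehicle. With all mice, no gene of the set passed, whereas the relative levels leaned upward in the vehicle mice. Of the 37 tested genes, 0 were called in limma at an adjusted p under 0.05, against 220 of all 17714 tested genes (1.24%), of which 75 (0.423%) were higher in vehicle mice. At an unadjusted p under 0.05, 5 of the 37 passed, Top2a, Cdk1, Ccnb2, Birc5 and Mcm3, against 1761 of all tested genes (9.94%). Without the filter on low values 0 of 41 passed, against 232 of 19261 genes (1.2%). At an unadjusted p under 0.05 that fit had 9 of 41, adding Ccnb1, Bub1, Aurkb and Kif2c, against 1910 genes (9.92%). Cdk1 averaged 0.819 ± 0.686 TPM in controls and 2.81 ± 1.98 TPM with cuprizone and vehicle (SD, n = 5 each), a relative log2 fold change of 1.51 (95% interval 0.58 to 2.44, adjusted p = 0.298 in limma). Top2a had 0.723 ± 0.127 and 2.24 ± 1.34 TPM, a relative log2 fold change of 1.27 (0.71 to 1.82, adjusted p = 0.0673). Mcm3 had 1.63 ± 0.225 and 2.78 ± 0.79 TPM, at 0.81 (0.43 to 1.18, adjusted p = 0.177).

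Top2a was the only 1 of the 37 that passed under any of the 25 alternative settings of this comparison, in 5 of them. Its adjusted p in limma was 0.0142 with libraries scaled to a common median, 0.0225 with Bc1 taken out, 0.0239 without vehicle mouse 1 and 0.0166 without both mice numbered 1 of the cuprizone groups. The relative log2 fold change without both was 1.17 (0.63 to 1.71), and 768 genes (4.34%) were then called, 344 of them higher (1.94%). With vehicle mouse 5 left out as well it was 0.88 (0.46 to 1.29, adjusted p = 0.0303), with 503 genes called (2.84% of those tested), and 1.26% called higher. Without vehicle mouse 5 alone the adjusted p was 0.110, and it ranged over 0.0142 to 0.191 in the 25 settings.

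Cdk1 and Mki67 did not pass in any setting. Without both mice numbered 1 their relative log2 fold changes were 1.31 (0.52 to 2.10, adjusted p = 0.0691 in limma) and 0.72 (0.21 to 1.22, adjusted p = 0.135), and with vehicle mouse 5 also left out 0.92 and 0.42. Of the MCM genes, Mcm3 was then at 0.40, Mcm5 at 0.28 and Mcm7 at 0.26. Pcna was at 0.30 (0.12 to 0.49, adjusted p = 0.501) with all mice, at 0.12 without both mice numbered 1 and at 0.06 with vehicle mouse 5 also left out.

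In TPM, where most genes of vehicle mouse 1 were low, Top2a and Mcm3 were the 2 genes of 41 with every vehicle mouse above every control mouse. Of all measured genes, 0.909% showed this pattern. Without both mice numbered 1, Mki67, Cenpf and Mcm5 joined them, 5 of 41 against 2.9% of all measured genes. Over all 29 mitotic genes, without the filter, the median relative log2 fold change was 0.40, and 28 of the 29 lay above 0, the exception being Prc1 at -0.03. Over the 12 replication genes the median was 0.30 and all 12 lay above 0. The interquartile range of all 19261 genes was -0.13 to 0.14. Without subtraction of the median gene, the medians were 0.20 and 0.10. With both mice numbered 1 and vehicle mouse 5 left out the relative medians were 0.22 and 0.17, with 25 of 29 and 11 of 12 above 0, against an interquartile range of -0.07 to 0.09 over all genes.

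In the authors' deposited table of this comparison, 7 of the 41 genes had an adjusted p under 0.05 and all 7 were higher in vehicle mice, against 3.86% of 21288 genes. The log2 fold changes in the authors' deposited table were 1.99 for Cdk1 (adjusted p = 0.00644), 1.67 for Aurkb (0.0425), 1.45 for both Top2a (0.0126) and Mki67 (0.029), 0.69 for Mcm3 (0.00579), 0.40 for Mcm5 (0.012) and 0.31 for Mcm7 (0.0178). Which mice entered that table is not given in the sources used here. Over the 11341 genes whose mean level in that table was 200 or more, the authors' log2 fold changes differed from those of mean TPM by a median of 0.0151 log2 without vehicle mouse 1, against 0.0581 with all mice, after shifts of whole libraries were taken out.

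**Figure D4:**
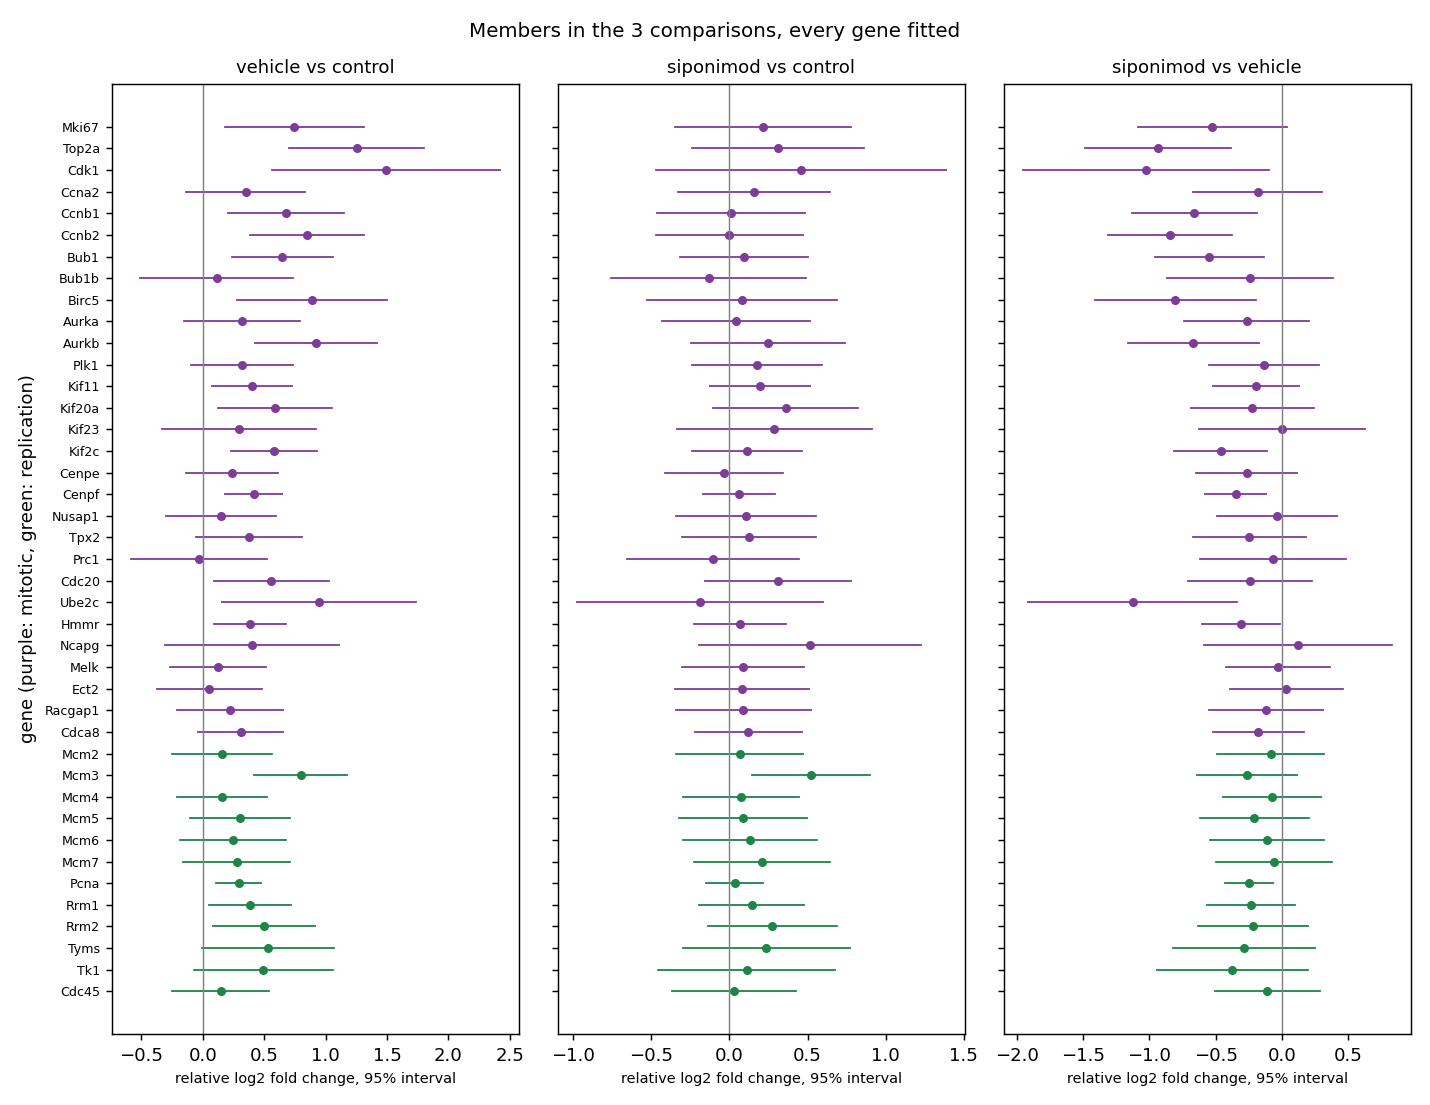
Relative log2 fold change of each gene (point) with its 95% limma interval (line) in the 3 comparisons, fitted without a filter on low values; purple marks the 29 mitotic and green the 12 replication genes, and the vertical line marks the median gene. The points lie mostly right of the line for vehicle against control, close to it for siponimod against control and mostly left of it for siponimod against vehicle, and the widest intervals belong to Cdk1 and Ube2c.

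The second comparison set the siponimod mice, on the same cuprizone diet, against the controls. No gene of the set passed. With all mice, all 12 replication genes lay slightly above control in relative level. The medians of the mitotic and of the replication genes were near that of all genes once siponimod mouse 1 was left out. This comparison shares the control mice with the first comparison. In limma 0 of 37 tested genes passed, against 132 of 17714 tested genes (0.745%), and at an unadjusted p under 0.05 1 passed, Mcm3, against 827 (4.67%). Without the filter 0 of 41 passed, against 0.758% of all genes, and at an unadjusted p under 0.05 again Mcm3 alone, against 4.9%. Mcm3 had 2.6 ± 0.559 TPM in siponimod mice, a relative log2 fold change of 0.52 (95% interval 0.15 to 0.90, adjusted p = 0.466 in limma). It was the 1 gene of 41 with every siponimod mouse above every control mouse, against 2.58% of all measured genes. Without both mice numbered 1 its relative change was 0.45 (0.11 to 0.79, adjusted p = 0.230), and it again was the 1 gene without overlap, against 2.99%. In that fit 0 of the 37 were called, against 1.98% of all tested genes.

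Top2a had 1.08 ± 0.497 TPM in siponimod mice, a relative log2 fold change of 0.31 from control (-0.24 to 0.86), and 0.17 (-0.37 to 0.70) without both mice numbered 1. Mki67 was at 0.21 (-0.36 to 0.79) and 0.03 (-0.47 to 0.54), and Cdk1 at 0.46 (-0.47 to 1.39) and 0.07 (-0.72 to 0.86). The intervals of these 3 genes held 0 in both fits. Over the 29 mitotic genes the median was 0.11, with 24 of 29 above 0, and 0.03, with 18 of 29 above 0, without both mice numbered 1. Over the 12 replication genes it was 0.12, with 12 of 12 above 0, and 0.06, with 11 of 12 above 0. The interquartile range of all genes was -0.08 to 0.08 in both fits. The mitotic and the replication medians lay outside it with all mice and inside it without siponimod mouse 1. In the authors' deposited table, 0 of 41 genes had an adjusted p under 0.05, against 5.14% of 19264 genes, and the smallest was that of Mcm7 (0.347). The log2 fold changes of that table were compared with those of mean TPM as above, over 10736 genes. They differed by a median of 0.0152 log2 without siponimod mouse 1, against 0.0258 with all mice.

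The third comparison, siponimod against vehicle mice, addresses what the drug changed under cuprizone. It shares the vehicle mice with the first and the siponimod mice with the second comparison. Relative levels of most mitotic genes were lower in siponimod than in vehicle mice, but none passed the test. In limma 0 of 37 tested genes passed, as did 0 of all 17714 genes (0%), in each of the 26 settings fitted. At an unadjusted p under 0.05, 3 passed, Top2a, Ccnb2 and Ube2c, against 874 of all tested genes (4.93%). Without the filter the same 3 of 41 did, against 4.91% of all genes. Top2a had a relative log2 fold change of -0.95 (95% interval -1.5 to -0.39, adjusted p = 0.496 in limma), Ccnb2 of -0.85 (-1.33 to -0.38), Ube2c of -1.14 (-1.93 to -0.34) and Cdk1 of -1.04 (-1.97 to -0.11). Ncapg was at 0.11 (-0.61 to 0.82) and Mcm7 at -0.07 (-0.51 to 0.36).

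With all mice, no gene of the 41 had every siponimod mouse below every vehicle mouse in TPM, a pattern that 0.0363% of all measured genes showed. Tested genes of vehicle mouse 1 had a median ratio of 0.494 to their group median. Few genes could therefore show this pattern, and its absence from the 41 says little about them. Without vehicle mouse 1 and siponimod mouse 1 the groups did not overlap for Cdk1, Birc5, Ccnb2, Aurkb and Cenpf, 5 of 41, all lower in siponimod mice, against 1.23% of all measured genes. Siponimod mouse 1 was the mouse that overlapped the vehicle range for Cdk1, Birc5, Ccnb2 and Aurkb, and for Cenpf vehicle mouse 1 was low as well. Leaving out siponimod mouse 1 thus itself removed the overlap for Cdk1, Birc5, Ccnb2 and Aurkb. In Bc1, at 6.9% of TPM, and in its median tested gene, at 12.8 TPM, its library was not unlike the others. By summed markers it was the highest of its group for microglia, astrocytes and choroid plexus with ependyma (952.9 TPM), and the lowest for mature oligodendrocytes. Siponimod mouse 1 had the highest mitotic sum of its group, 55.9 TPM, while vehicle mouse 5, at 79.5 TPM, was kept. With both mice numbered 1 left out, Cdk1 was at 1.49 to 6.27 TPM in the 4 vehicle mice and at 0.46 to 1.4 TPM in the 4 siponimod mice, with a relative log2 fold change of -1.24 (-2.07 to -0.40, adjusted p = 0.377 in limma). Leaving out vehicle mouse 5 as well gave -0.85 (-1.55 to -0.14) for Cdk1 and -0.71 (-1.14 to -0.27) for Top2a.

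Over the 29 mitotic genes the median relative log2 fold change was -0.24, and 3 of 29 lay above 0. Over the 12 replication genes it was -0.21, with 0 of 12 above 0, while the interquartile range of all genes was -0.12 to 0.12. Without both mice numbered 1 these medians were -0.28 and -0.18, and with vehicle mouse 5 also left out -0.15 and -0.04. The replication median thus lay within the interquartile range of all genes, -0.08 to 0.07, once vehicle mouse 5 was left out. The direction also depended on the scale. Without subtraction of the median gene the mitotic median was -0.05 with all mice, -0.25 without both mice numbered 1 and 0.08 without vehicle mouse 5 alone. The authors' deposited table of this comparison lists 17 of the 41 genes, and every gene in it has a mean level of at least 77.4. In the authors' deposited table, none of the 17 had an adjusted p under 0.05, against 2.05% of 13589 genes, with the smallest for Top2a (0.116). Compared as above over 11587 genes, its log2 fold changes differed from those of mean TPM by a median of 0.0602 log2 with all mice. The median was 0.0256 log2 without vehicle mouse 1 and 0.0162 log2 without both mice numbered 1.

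Other genes of the same programmes were read from lists of symbols. Of 36 further genes of mitosis 33 were measured and 27 tested. In vehicle mice 1 of them fell, Anln, and 0 rose, and in siponimod mice also 1 fell, Anln, and 0 rose. Anln encodes anillin, a scaffold of the cleavage furrow that oligodendrocytes also express (ENSMUSG00000036777, chromosome 9, 22332012 to 22389188). It had 15.7, 14.3, 11.7, 17.2 and 14 TPM in control mice 1 to 5, 1.57, 3.61, 3.88, 5.45 and 3.86 TPM in vehicle mice 1 to 5 and 3.85, 3.48, 4.74, 5.69 and 4.4 TPM in siponimod mice 1 to 5, and every cuprizone mouse lay below every control mouse. Its relative log2 fold change was -1.71 in vehicle mice (adjusted p = 0.000157 in limma) and -1.63 in siponimod mice (adjusted p = 0.00115). Markers of mature oligodendrocytes fell in the same mice, and their part in the fall of Anln was not tested. Without both mice numbered 1, Nuf2, a kinetochore protein, rose in vehicle mice (0.54, adjusted p = 0.0375), and Fam83d, a spindle protein, fell in siponimod mice (-0.61, adjusted p = 0.0442). At an adjusted p under 0.05, the authors' deposited tables had Nuf2, Aspm and Ndc80 higher and Anln lower in vehicle mice. They had Anln and Fam83d lower in siponimod mice.

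Of 34 further replication genes 34 were measured and 31 tested, and 1 rose in both comparisons, Gins1, a subunit of the GINS complex that works with MCM and Cdc45 (ENSMUSG00000027454, chromosome 2, 150905400 to 150931280). It had 0.98, 0.85, 0.79, 0.86 and 0.99 TPM in control mice 1 to 5, 1.87, 1.41, 1.84, 2.15 and 1.32 TPM in vehicle mice 1 to 5 and 1.6, 1.84, 1.89, 1.41 and 1.55 TPM in siponimod mice 1 to 5. All cuprizone mice lay above all control mice, at 0.87 log2 in vehicle mice (adjusted p = 0.0159) and 0.62 in siponimod mice (adjusted p = 0.0309 in limma). In the authors' deposited tables, Gins1 was called higher in vehicle mice, and 0 genes of this list were called in siponimod mice. Of 23 genes of cell cycle entry 22 were measured, 19 tested and 0 called in limma in either comparison with all mice. At an adjusted p under 0.05, the authors' deposited tables had Ccnd1, Ccnd2 and Cdk6 higher in vehicle mice and Ccnd1 higher in siponimod mice. Ccnd1, the cyclin D1 of G1 phase (ENSMUSG00000070348, chromosome 7, 144929931 to 144939925), had 19.6, 22.2, 25.4, 18.1 and 22.8 TPM in control mice 1 to 5, 11.7, 23.7, 27.3, 25 and 28.2 TPM in vehicle mice 1 to 5 and 29.5, 34.3, 28.2, 29.7 and 28.8 TPM in siponimod mice 1 to 5. It rose in siponimod mice without both mice numbered 1 (0.47, adjusted p = 0.0111, against 0.810 with all mice). Ccnd2 had 24.7 ± 3.78, 26.6 ± 6.01 and 29.7 ± 2.04 TPM in control, vehicle and siponimod mice. E2f1, a factor of the replication programme, had 9.25 ± 0.496, 8.28 ± 1.95 and 9.23 ± 0.214 TPM. Foxm1, a factor of the mitotic programme, had 1.19 ± 0.538, 1.27 ± 1.31 and 1.31 ± 0.524 TPM, with its highest value, 3.6 TPM, in vehicle mouse 5.

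The last list held genes that restrain the cycle. Of 14 inhibitors and antiproliferative genes 13 were measured and tested, and 1 rose in both comparisons, Cdkn1a, which encodes the kinase inhibitor p21 (ENSMUSG00000023067, chromosome 17, 29090976 to 29100727). It had 14.6, 16, 17, 17.6 and 16.3 TPM in control mice 1 to 5, 30.7, 39.7, 36.8, 50.7 and 57.2 TPM in vehicle mice 1 to 5 and 58.7, 51.1, 49.2, 62.8 and 59.8 TPM in siponimod mice 1 to 5. Every cuprizone mouse lay above every control mouse, and siponimod mouse 1 and vehicle mouse 5 did not stand apart from their groups. The relative log2 fold change was 1.55 in vehicle mice (95% interval 1.24 to 1.87, adjusted p = 7.7e-05 in limma) and 1.75 in siponimod mice (1.44 to 2.06, adjusted p = 5.28e-06). Between siponimod and vehicle mice it was 0.20 (-0.11 to 0.51, adjusted p = 0.496). Ccng1, a target of p53, rose in both comparisons without both mice numbered 1 (0.34 and 0.40, adjusted p = 0.0141 and 0.00241). At an adjusted p under 0.05, the authors' deposited tables had Cdkn1a, Ccng1, Btg1, Gadd45a and Cdkn1b higher in vehicle mice. They had Cdkn1a, Ccng1, Gadd45a and Btg1 higher in siponimod mice. In the comparison of siponimod with vehicle mice 0 genes of these 4 lists were called. The median relative log2 fold changes of the lists in vehicle and in siponimod mice were 0.32 and 0.09 for mitosis, 0.17 and 0.04 for replication, 0.16 and 0.08 for entry and 0.21 and 0.12 for inhibitors.

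Markers of cell types were summed per mouse beside the mitotic genes. As a check of the labelled tissue, 8 of 8 markers of excitatory cortical neurons were measured and summed to 3528 to 3965 TPM in control mice, and 10 of 10 markers of mature oligodendrocytes summed to 3541 to 5414 TPM. Markers of microglia, 10 of 10 measured and none at 0, summed to 345 to 384 TPM in control, 452 to 801 TPM in vehicle and 407 to 659 TPM in siponimod mice. Within each cuprizone group, the highest microglial sum in TPM was that of the mouse with the highest mitotic sum, 800.6 TPM in vehicle mouse 5 and 659 TPM in siponimod mouse 1. Among vehicle mice this depended on the scale. Divided by the median tested gene of the library, the microglial sum was 107 in vehicle mouse 1 and 62.2 in vehicle mouse 5. The lowest sums of mature oligodendrocytes in TPM were those of vehicle mouse 5, at 549.6 TPM, and of siponimod mouse 1, at 729 TPM. All 10 oligodendrocyte markers fell in vehicle mice and 9 in siponimod mice. Of the microglial markers 3 rose in vehicle mice, C1qb, Trem2 and C1qa, and 0 were called in siponimod mice. When both mice numbered 1 were left out, 7 of the 10 rose in vehicle mice and 0 were called in siponimod mice, and with vehicle mouse 5 also left out 4 rose in vehicle and 3 in siponimod mice. In the authors' deposited tables, 8 were higher in vehicle and 5 in siponimod mice.

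Astrocyte markers, 10 of 10 measured, were also highest in TPM in vehicle mouse 5, at 2737 TPM, and siponimod mouse 1, at 2632 TPM. Control mice had 1640 to 1766 TPM. Divided by the median tested gene, the astrocyte sum was 253 in vehicle mouse 1 and 213 in vehicle mouse 5. Gfap and Vim, filament proteins of reactive astrocytes, rose in both comparisons, and 5 astrocyte markers in vehicle and 4 in siponimod mice without both mice numbered 1. Markers of oligodendrocyte progenitors, 10 of 10 measured, summed to 425 to 452 TPM in control, 164 to 436 TPM in vehicle and 420 to 440 TPM in siponimod mice. The 164 TPM was that of vehicle mouse 1, and the other vehicle mice had 363 to 436 TPM. Divided by the median tested gene, vehicle mouse 1 was at 29.6, beside 30.7 to 34.3 in the other vehicle mice. Neither vehicle mouse 5, at 398.0 TPM, nor siponimod mouse 1, at 421.0 TPM, was the highest of its group there. Olig1, a factor of the oligodendrocyte lineage, fell in vehicle mice and 0 progenitor markers were called in siponimod mice. Olig1 again fell in vehicle mice without both mice numbered 1, and Olig2, another such factor, rose in both comparisons. Markers of neuroblasts and progenitors of the subventricular zone summed to 55.9 to 66.7, 29.4 to 67.9 and 64.6 to 73.3 TPM, with vehicle mouse 5 (67.9 TPM) and siponimod mouse 1 (73.3 TPM) highest in their groups. The 29.4 TPM was again that of vehicle mouse 1. Divided by the median tested gene its sum was 5.30, beside 4.85 to 5.42 in the other vehicle mice. Markers of blood-borne leukocytes, of which 2 of 10 were measured and 0 tested, summed to under 1 TPM in every mouse. Erythrocyte markers were highest in vehicle mouse 5 (472.7 TPM) and lowest of the siponimod group in siponimod mouse 1 (101.7 TPM). Markers of choroid plexus and ependyma varied from 37.6 to 2374 TPM between mice, at 49.4 TPM in vehicle mouse 5 and 952.9 TPM in siponimod mouse 1. Markers of endothelium and pericytes summed to 171.6 to 263.7 TPM over the 15 mice, lowest in vehicle mouse 1, and 0 of 10 were called in any comparison with all mice. The part of any of these cell types in the levels of the cell cycle genes was not tested.

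**Figure D5:**
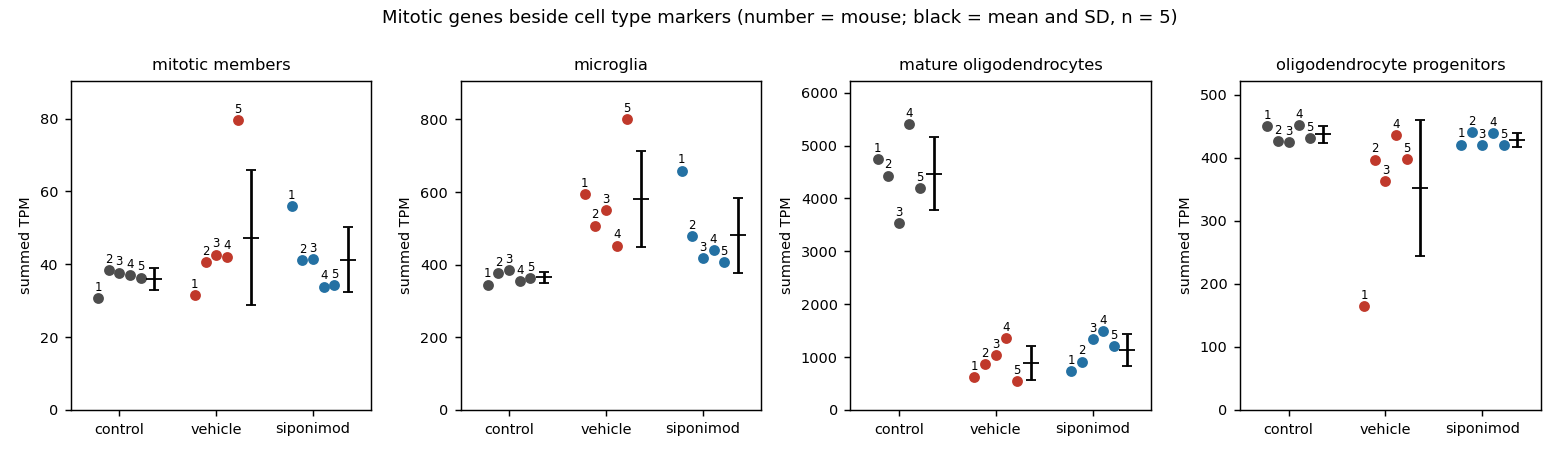
Summed TPM per mouse of the 29 mitotic genes and of markers of microglia, mature oligodendrocytes and oligodendrocyte progenitors, with 1 numbered point per mouse and the mean with SD (n = 5) in black. Vehicle mouse 5 and siponimod mouse 1 are the highest of their groups for mitotic genes and microglia and the lowest for mature oligodendrocytes, and lie among the other mice for progenitors.

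Several of these genes overlap others on the opposite strand, and whether the quantification used strand is not given in the sources used here. Among those with values given in full these are Top2a (with Gm26394), Ccna2 (Exosc9), Ncapg (Lcorl), Nusap1 (Oip5), Prc1 (Rccd1 and 6330403N20Rik), Mcm7 (Cops6 and Ap4m1) and Mki67 (Gm45240), and reads of the partners may be counted with them. Annotated genes on the same strand overlap Top2a (Gm23451), Nusap1 (n-R5s204), Rrm1 (Gm45399) and Mcm7 (Mir25, Mir93 and Mir106b). Pcna, Ccnb1, Ccnb2 and Tyms have annotated pseudogenes that could share their reads.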

How the data were processed

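RNA of 15 mice, 5 per group, was quantified by the submitters, per the submitters' processing notes, on mm10; the tools named are Salmon 1.4.0, STAR 2.6.1d, Trim Galore 0.6.6 and bcl2fastq. Their order, the annotation and any strand setting were not given in the sources used here. Per the labels' protocols the libraries were stranded total RNA with rRNA depletion, whereas per the file headers the analysis was of 3' mRNA, in which case TPM are less comparable between genes. The deposited values are TPM, which sum to 995381 to 996476 per mouse. The authors also deposited, per comparison, log2 fold changes and their standard errors, a score that is their quotient, p-values and adjusted p-values, and a mean signal per gene. The sources used here give neither the test nor the mice behind them. All columns of values were mapped, and 0 were left unmapped. Of these, the deposited score was not used, and the mean signal served only to select genes by level.

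From the TPM, log2(TPM + 0.5) of genes above 0.5 TPM in at least 5 mice was fitted with limma 3.58.1 in R 4.3.3 (trend, 1 model of 3 groups, Benjamini-Hochberg adjustment, threshold 0.05), and tested on simulated data. Tables and plots used Python 3.11.15, pandas 2.3.3, numpy 2.4.6 and matplotlib 3.10.9. Coordinates are GRCm38 in GENCODE. Each mouse is a separate animal in the labels. The rule for values in full took the 8 mitotic and 5 replication genes of highest mean TPM, Mki67, Top2a, Cdk1, Mcm2, Mcm5, Pcna and Rrm2, and any gene called with all mice; 17 genes met it. Mcm3, and the other genes singled out beyond this rule, were named after their values were seen. Printed promoters had at most 30 bases in annotated exons, a limit set after the promoters were read. The genes and lists were chosen with earlier results of these data known. The alternatives were other pseudocounts and filters, scaling, Bc1 taken out, fewer groups, a replicate block and mice left out.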

Additional observations from a re-analysis of the deposited data

Results flagged for a closer look

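In 9 of 60 groups of 5 mice checked, the highest or lowest value lay apart from the rest by more than 0.71 of the range of the group, which chance gives in about 1 of 20 groups. Of the 9, 5 were values of vehicle mouse 5: Cdk1 at 6.27 TPM, Mki67 at 2.22 TPM, Rrm2 at 3.30 TPM, Top2a at 4.55 TPM and the sum of the mitotic genes at 79.5 TPM. Siponimod mouse 1 gave 2, Cdk1 at 4.37 TPM and Rrm2 at 2.82 TPM. In control mice, Kif23 was high in mouse 4, at 2.44 TPM, and the sum of the mitotic genes was low in mouse 1, at 30.7 TPM. These values were kept in the comparisons, and no cause was tested. The 60 groups share mice, so the values are not independent.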

How the results depend on the processing

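Over the 17 genes with values in full, the 3 comparisons and the alternatives that gave a value, 1267 results kept their side of the threshold and 5, all of Top2a in vehicle against control mice, passed it newly. Of those that kept their side, 24 changed sign, all uncalled. Between vehicle and control mice, 220 genes were called, 450 with libraries scaled to a common median, 768 without both mice numbered 1, 503 with vehicle mouse 5 also left out, and 148 to 652 with 1 mouse left out. Of the 41 genes, 0 were called with all mice, 1 with scaling, with Bc1 taken out, without both mice numbered 1 and with vehicle mouse 5 also left out, and 0 to 1 with 1 mouse left out. Between siponimod and control mice, 132 genes were called, 221 with scaling, 350 without both mice numbered 1, 457 with vehicle mouse 5 also left out, 508 with only these groups fitted, and 97 to 490 with 1 mouse left out. The exclusion of vehicle mouse 5 together with both mice numbered 1 was chosen after seeing the data. The replicate block called 178, 111 and 0 genes in the 3 comparisons and 0 of the 41. Mice with the same number correlated at -0.06 to 0.20, not all above 0.1, so the numbers were not used as pairs in the main fit. These correlations cannot show whether mice with the same number were housed or handled together. TPM keep no depth, so low levels carry an unknown counting error. Most of the mitotic genes lie under 2 TPM.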
